A study of Mus musculus with 36 samples.

Results

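Duox2 and Duoxa2 make up an enzyme and its partner in the epithelium. They were measured in mouse ileal mucosa by 2 of the 224 TaqMan assays of a custom real-time PCR panel, Mm01326247_m1 (Duox2) and Mm00470560_m1 (Duoxa2). The deposited table carries catalogue IDs only, so the gene names are those given with these IDs in the catalogue and were not checked against a gene table here. The pair was chosen by its measured differences between colonised and germfree mice in these same data. Differences between groups are therefore a description. Their errors and intervals are those of a difference of means. They rest on the spread between samples, pooled over all 4 groups unless stated otherwise, and no p-value is given for the differences.

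Dual oxidase 2, encoded by Duox2, is a transmembrane NADPH oxidase that releases hydrogen peroxide at the apical surface of epithelial cells. Dual oxidase maturation factor 2, encoded by Duoxa2, is the membrane protein that the oxidase needs to leave the endoplasmic reticulum and become active at the cell surface. In the intestine the enzyme is known for epithelial defence against bacteria close to the mucosa, and both genes are known to respond to microbial signals there. The same enzyme supplies hydrogen peroxide for hormone synthesis in the thyroid.

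Mucosa was taken from the ileum, the last part of the small intestine, in 4 groups of 9 samples. Germfree mice (labelled Ax), which carry no microbes, were the control. A mono-associated group carried E. coli CEC, an abbreviation that the labels do not expand, and another carried E. coli Nissle, which is known as a probiotic. For these groups the labels state the number 21 for colonisation, with no unit. Conventional mice (labelled CV) carried an ordinary complex microbiota. The sources used here do not state the strain, age or sex of the mice. The design text speaks of pooled RNA while the titles number the samples, so a sample may be 1 mouse or a pool, and the spread between samples may be partly technical. The tissue could not be checked against marker genes, because the IDs of the other assays are not paired with genes here. The header of the table calls it a truncated example, so ranks and shares refer to the 224 assays at hand.

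Both assays gave a Ct, the PCR cycle at which fluorescence crosses a threshold, in all 36 samples. Levels are stated as log2 relative levels: the Ct averaged over 146 assays with a value in all samples, minus the Ct of the assay, so that 1 unit is a doubling and a higher value is more transcript. That average lay between 21.0 and 21.8 over all samples, the highest being CEC replicate 7. The number of assays measured was 214 to 222 except in CEC replicate 6 (198) and Nissle replicate 6 (175). In these samples most undetermined wells, 25 and 47 of them, fell in the first 112 rows of the table, where the members stand in rows 63 and 64. CEC replicate 7 stood apart in another way, with 32 assays more than 3 log2 units from the median of its group.

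The genes are neighbours on mouse chromosome 2 in RefSeq's GRCm38.p6 gene table, in head-to-head orientation. Duox2 spans 122279246 to 122298740 on the minus strand and Duoxa2 spans 122298900 to 122302885 on the plus strand. The 159 bases between these spans lie upstream of both genes, and they are shown because the levels of the 2 transcripts followed each other from sample to sample. The stretch is chr2:122298741-122298899 of GRCm38.p6, read 5′ to 3′ on the plus strand toward Duoxa2, with the letters TATAA in capitals.

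Duox2 to Duoxa2: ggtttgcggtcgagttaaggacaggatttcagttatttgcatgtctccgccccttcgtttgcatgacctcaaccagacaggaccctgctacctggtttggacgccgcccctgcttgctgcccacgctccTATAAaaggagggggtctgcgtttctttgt

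TATAA, the core of the TATA box, had 1 match, which begins 30 bases before the Duoxa2 start. On either strand the same letters occur in 14.9% of the 32851 mouse promoter stretches of this length in the table. The STAT palindrome TTCNNNGAA (in 4.33% of these stretches), the AP-1 site TGANTCA (4.51%) and the NF-kB site (3.34%) had 0 matches on either strand. The GC content was 54.7%, beside a median of 53.5% over all stretches. The promoter table places the Duox2 start at 122298227, which is 513 bases inside the gene's span, so which start is used in this tissue is not settled by these sequences.

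Duox2, the oxidase itself, was higher in conventional than in germfree mucosa. Its log2 relative level ran from -0.85 to -0.06 in germfree samples, with a median of -0.40 and a mean of -0.52 ± 0.31 (SD, n = 9). In conventional samples it ran from 1.24 to 2.24, with a median of 1.83 and a mean of 1.87 ± 0.33 (SD, n = 9). All 9 conventional samples lay above all 9 germfree samples. The share of all assays that separate these groups in this way is not given here. Neither this nor the same separation of Duoxa2 is read as particular to the pair. The difference was 2.38 ± 0.50 log2 units (SE of the limma fit to all 4 groups), a 5.21-fold difference. Because RNA came from whole mucosa, more cells that express a gene and more RNA per cell cannot be told apart.

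Duoxa2, the maturation factor, differed by more. Germfree levels ran from -3.18 to -2.13, with a median of -2.74 and a mean of -2.70 ± 0.34 (SD, n = 9). Conventional levels ran from 0.73 to 1.97, with a median of 1.52 and a mean of 1.41 ± 0.41 (SD, n = 9), again with no overlap. The difference was 4.11 ± 0.72 log2 units (SE), or 17.3-fold. It was the highest among the 216 assays that could be compared, and that of Duox2 ranked 7th from the top. Over all 216 assays the median difference was -0.08, with the middle 50% between -0.35 and 0.34.

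**Figure D1:**
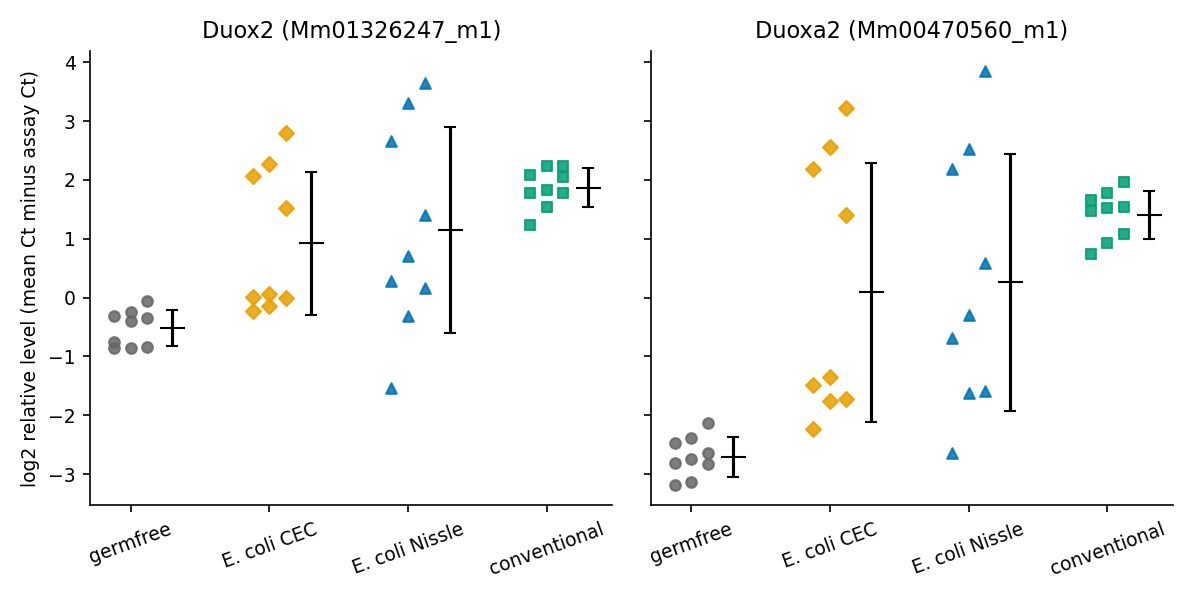
Log2 relative level (y axis) of Duox2 (left) and Duoxa2 (right) by group (x axis). Each point is 1 sample and the bar beside it is the mean ± SD (n = 9). Germfree and conventional samples form tight, separate groups for both genes, while CEC and Nissle samples span from near the germfree level to above the conventional range.

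In mice carrying a single E. coli strain the mean levels of both genes lay between those of germfree and conventional mice, but the samples scattered widely. With CEC, Duox2 had a mean of 0.93 ± 1.22 (SD, n = 9), ranging from -0.22 to 2.79 with a median of 0.06. Its difference from germfree was 1.44 ± 0.50 log2 units (SE), a 2.71-fold difference. The difference of the medians was only 0.46. Duoxa2 in the same samples ranged from -2.23 to 3.22, with a mean of 0.09 ± 2.20 (SD, n = 9) and a median of -1.36. Its difference from germfree was 2.79 ± 0.72 (SE), or 6.93-fold, and the difference of the medians was 1.39. For both genes the CEC mean fell in a stretch of levels that held 0 of the 9 samples.

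With Nissle, Duox2 ranged from -1.54 to 3.65, with a median of 0.70 and a mean of 1.15 ± 1.75 (SD, n = 9). The difference from germfree was 1.66 ± 0.50 log2 units (SE), or 3.17-fold, and 1.10 between the medians. For Duoxa2 the range was -2.65 to 3.84, the median -0.29 and the mean 0.26 ± 2.19 (SD, n = 9). It differed from germfree by 2.96 ± 0.72 (SE), or 7.78-fold, and by 2.45 between the medians. Among the 216 assays Duoxa2 again had the highest difference from germfree with either strain, and Duox2 ranked 3rd with CEC and 4th with Nissle. The comparisons with germfree share the same 9 germfree samples.

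**Figure D2:**
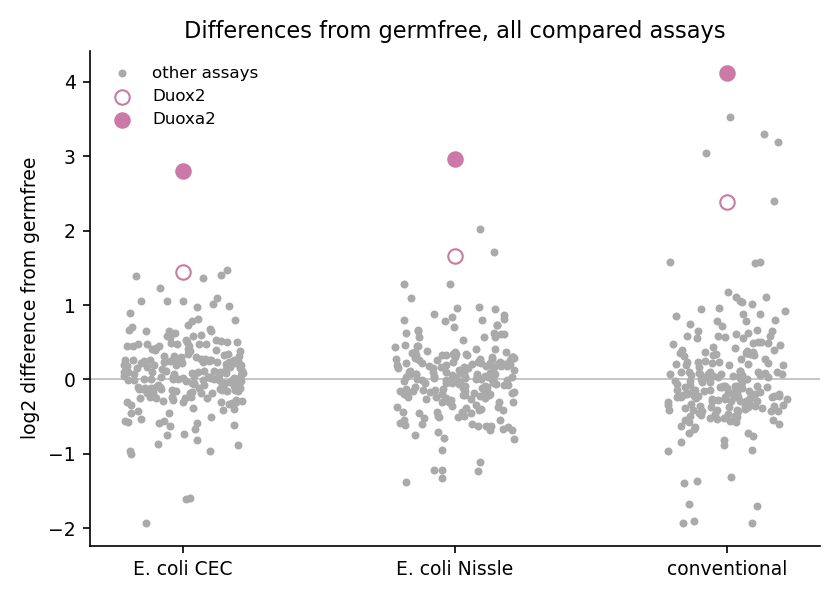
Difference from germfree in log2 relative level (y axis) for the 216 compared assays in the CEC, Nissle and conventional groups (x axis); each grey point is 1 assay. Duoxa2 (filled) is the topmost point in all 3 columns, at 2.79, 2.96 and 4.11, and Duox2 (open) lies at 1.44, 1.66 and 2.38.

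The strains' mean levels lay close together on both genes. Nissle minus CEC was 0.22 ± 0.50 log2 units (SE; 95% confidence interval -0.79 to 1.23) for Duox2 and 0.17 ± 0.72 (-1.29 to 1.62) for Duoxa2. These errors pool the spread of all 4 groups, and the germfree and conventional samples varied less than the mono-associated ones. With the spread of the CEC and Nissle samples alone the SE was 0.67 (interval -1.19 to 1.63) for Duox2 and 0.97 (-1.88 to 2.21) for Duoxa2, which reaches past a doubling in either direction. Conventional samples exceeded the mean of the mono-associated groups by 0.83 ± 0.43 (SE, -0.05 to 1.70) for Duox2 and by 1.24 ± 0.62 (-0.03 to 2.50) for Duoxa2. With the spread of these groups alone the intervals were -0.18 to 1.83 for Duox2 and -0.22 to 2.69 for Duoxa2. Between germfree and conventional samples, the more uniform groups, their own spread gave an SE of 0.15 for Duox2 and 0.17 for Duoxa2, smaller than the pooled values above. In order of mean level both genes ran germfree, CEC, Nissle, conventional. Both mono-associated groups overlapped each other, germfree and conventional samples, while germfree and conventional samples did not overlap.

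A limma fit across the panel, with an adjusted p under 0.05 in either direction, called 56 of 216 assays between conventional and germfree mice (25.9%), and both members were among them. With CEC it called 5.09% of the assays, Duoxa2 but not Duox2 among them. With Nissle it called 7.41%, including both. Between Nissle and CEC it called 0.463% and between conventional and mono-associated mice 21.3%, without either member. Since the members were chosen for these differences, the calls are no test of them, and nothing is read from those counts. The call of Duoxa2 with CEC was lost without CEC replicate 9. The call of Duox2 with Nissle was lost without Nissle replicate 2, 4, 6 or 9 or germfree replicate 11, 12, 22 or 31. It was also lost with raw Ct, with undetermined wells filled in, with only these groups fitted, and without CEC replicate 6 and Nissle replicate 6. Duox2 with CEC was called without CEC replicate 7 or Nissle replicate 7, with quantile normalization, with the 20 steadiest assays as the scale, with only these groups fitted, and without CEC replicate 7 and Nissle replicate 6. Both members were called between conventional and mono-associated mice when CEC replicate 6 and Nissle replicate 6 were dropped and the scaling assays chosen again, but not with the scaling assays kept.

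Within the CEC group the samples formed 2 sets on both genes. For Duoxa2, 5 samples lay between -2.23 and -1.36 and 4 between 1.40 and 3.22, with an empty stretch of 2.76 log2 units between them. For Duox2 the same 5 samples lay between -0.22 and 0.06 and the same 4 between 1.51 and 2.79, with a gap of 1.46. The upper 4 were CEC replicates 6, 8, 9 and 10. Their Duoxa2 levels were 3.22, 1.40, 2.19 and 2.56 in that order. Their Duox2 levels were 2.07, 1.51, 2.26 and 2.79. For Duoxa2, replicate 8 lay within the conventional range and the other 3 lay above it.

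The lower CEC samples were replicates 1, 2, 3, 4 and 7. On the scaled levels they were close to the germfree samples without matching them. For Duoxa2 only replicate 2, at -2.23, lay within the germfree range, and the other 4 lay above it. For Duox2, replicates 1 and 4 lay within the germfree range, and replicates 2, 3 and 7 lay just above its upper end of -0.06. This placement depended on the scaling. In raw Ct all 5 samples, at 21.27 to 21.81, lay within the germfree range of Duox2, 21.26 to 22.31. For Duoxa2, replicates 2 (23.56) and 7 (23.53) both lay within the raw germfree range of 23.34 to 24.66. CEC replicate 7, the sample with the divergent profile, had levels of -0.01 for Duox2 and -1.73 for Duoxa2, among the other samples of the lower set. Apart from replicate 7, the lower set carried smaller replicate numbers than the upper set. What the numbers stand for is not known here, and their part in the split was not tested.

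Nissle samples spread over the whole range, with the same 3 samples above the widest gap on both genes. In order of Duoxa2 they were replicate 2 at 3.84, replicate 4 at 2.52, replicate 6 at 2.18, replicate 9 at 0.58, replicate 5 at -0.29, replicate 1 at -0.68, replicate 3 at -1.58, replicate 8 at -1.62 and replicate 7 at -2.65. The widest gap, between replicates 6 and 9, was 1.60 log2 units. Replicate 7 lay within the germfree range. The upper 3 lay above all conventional samples, and the other 5 lay between the 2 ranges. For Duox2 the widest gap was 1.26, below replicate 4 at 2.66, beside 1.46 among CEC samples. Over the 18 mono-associated samples together the widest gap in Duoxa2 was 0.88, because Nissle samples filled the stretch that was empty among CEC samples.

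**Figure D3:**
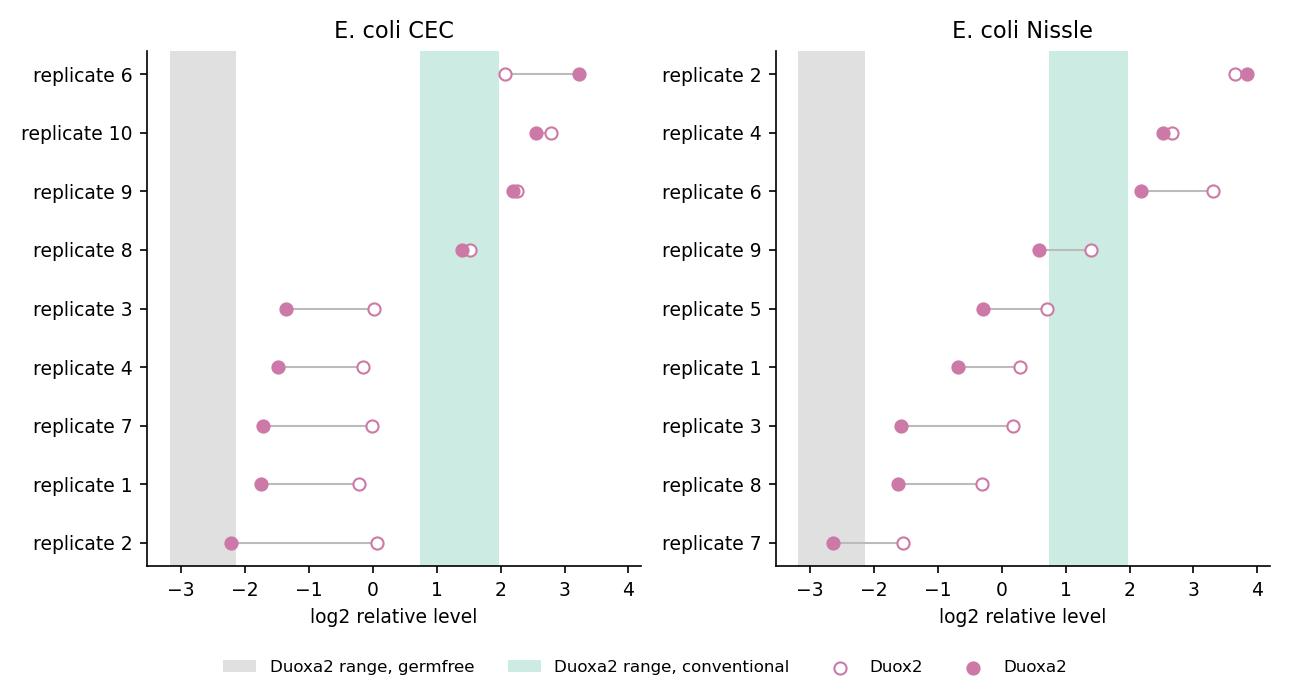
Log2 relative level (x axis) of Duox2 (open) and Duoxa2 (filled) in each CEC (left) and Nissle (right) sample, ordered by Duoxa2 (y axis, replicate number); shaded bands are the Duoxa2 range of germfree and conventional samples. CEC samples leave the stretch from -1.36 to 1.40 in Duoxa2 empty, while Nissle replicates 9, 5 and 1 lie within it.

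Counted over both strains, 2 of 18 mono-associated samples lay within the germfree range of Duoxa2, 9 between the germfree and conventional ranges, 1 within the conventional range and 6 above it. For Duox2, 1 sample lay below the germfree range, 3 within it, 6 between the ranges, 3 within the conventional range and 5 above it. The sample below was Nissle replicate 7, at -1.54 the lowest of all 36. The highest of all 36 for both genes was Nissle replicate 2, at 3.65 for Duox2 and 3.84 for Duoxa2. These counts and ranks are of scaled levels, and raw Ct placed some samples otherwise.

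The wide spread was found in the mono-associated groups. The SD of Duoxa2 was 2.20 in CEC and 2.19 in Nissle samples, ranking 6th and 2nd from the highest among 146 assays, whose median SD was 0.52 and 0.40. Without CEC replicate 7 and Nissle replicate 6 it was 2.22 and 2.17, ranking 4th and 1st of the 179 assays then complete, to which levels were scaled anew. For Duox2 the SD was 1.22 with CEC, ranking 24th, and 1.75 with Nissle, ranking 5th. Without those samples it was 1.22 and 1.62, ranking 9th and 4th of 179. In germfree samples the SD of Duox2 and Duoxa2, 0.31 and 0.34, ranked 83rd and 74th, close to the panel's median of 0.34. In conventional samples they were 0.33 and 0.41, ranking 54th and 36th, beside a median of 0.27. Apart from CEC replicate 6 and Nissle replicate 6, both of which were high for the pair, the mono-associated samples had 215 to 221 assays measured, whether high or low.

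Oxidase and maturation factor followed each other over the samples as a whole, and less closely within uniform groups. Of the 36 possible pairs of Nissle samples, 35 were in the same order for both genes, replicates 4 and 6 being the exception. Of the 36 pairs of CEC samples, 29 were in the same order, as were 26 of 36 in germfree and 26 of 36 in conventional samples. The same CEC samples formed the lower and upper sets on both genes, so every pair across the sets had to agree. Within the sets the order agreed only in part. In the lower set, replicate 2 was highest for Duox2 (0.06) and lowest for Duoxa2 (-2.23). Over all 36 samples Pearson's r between the genes was 0.965, ranking 3rd among 10585 pairs of assays, whose median r was 0.006. Over the 18 mono-associated samples it was 0.956, ranking 16th. Within the uniform groups the pair stood lower, 981st in germfree and 429th in conventional samples. These ranks are a description without a test: the r over all samples spans groups that differ in both genes, and both values of a sample share its cDNA and its scaling.

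**Figure D4:**
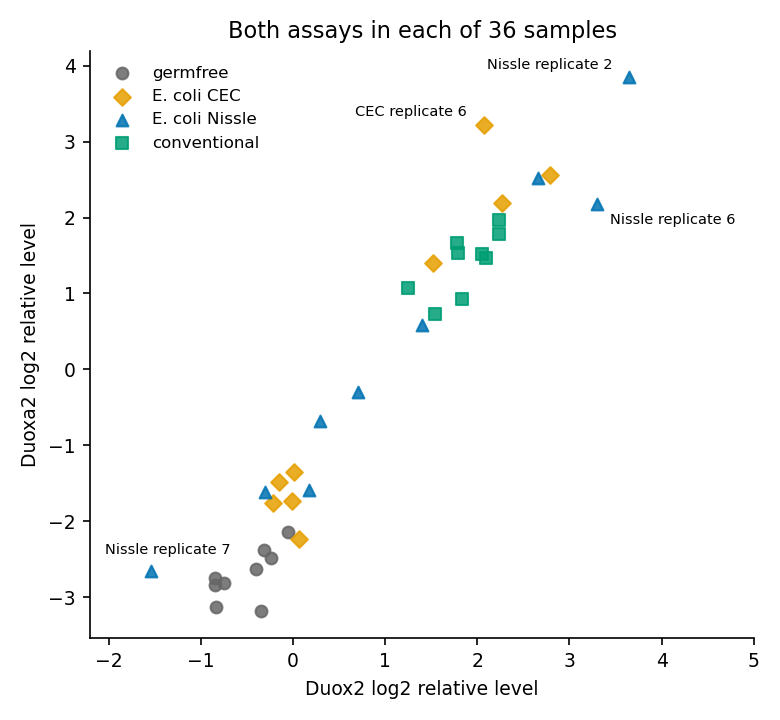
Duoxa2 (y axis) against Duox2 (x axis), both as log2 relative levels, with 1 point per sample and the group shown by colour and shape. Most points form a single band from germfree to the highest mono-associated samples, with CEC replicate 6 above it and Nissle replicate 6 below it. Nissle replicate 7 lies to the left of all other points.

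Within a group of uniform samples the relation was looser. The genes were taken as a pair with earlier results of these data known. The p-values below are therefore a description and are not read as a test of the pair. Among germfree samples Pearson's r was 0.64 (two-sided exact permutation p = 0.0688, n = 9) and Spearman's rho 0.62 (exact p = 0.0857). Among conventional samples r was 0.73 (two-sided exact permutation p = 0.0260, n = 9) and rho 0.63 (exact p = 0.0760). Adjusted by Benjamini-Hochberg over these groups, the exact permutation p for r was 0.0688 and 0.0521, and for rho 0.0857 in both, so neither passed 0.05. Without the 2 samples farthest from the median of Duox2, r was 0.71 and 0.69. With the 20 steadiest assays as the scale r was 0.77 in both groups (adjusted exact permutation p = 0.0158 in both), from which nothing is concluded. With quantile normalization it was lower, 0.47 in germfree and 0.58 in conventional samples (adjusted exact permutation p = 0.191 in both). With raw Ct (0.72 and 0.64) and median scaling (0.64 and 0.66) neither group passed. CEC and Nissle samples were separated by gaps of over 1 log2 unit into sets of fewer than 6 on at least 1 of the genes. By the rule used here no r is taken across separate sets within a group, so none was computed for either strain. The r of 0.956 over the 18 mono-associated samples spans such sets and is only a description. The counts of sample pairs in the same order describe the relation within each strain, and for CEC they include the pairs across its sets.

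The 2 genes moved together but not by the same amount. Duox2 Ct minus Duoxa2 Ct in the same sample equals the log2 level of Duoxa2 minus that of Duox2 and needs no scaling. The difference is compared between samples only, since the Ct of 1 assay is no measure of level against another. It was -2.19 ± 0.28 cycles (SD, n = 9; -2.84 to -1.89) in germfree and -0.46 ± 0.28 (SD, n = 9; -0.90 to -0.11) in conventional samples, which did not overlap. Relative to Duox2, Duoxa2 was thus 1.73 log2 units, or 3.32-fold, higher in conventional than in germfree samples. The amplification efficiency of the assays was not stated, and its part in this difference was not tested. The share of assay pairs that separate these groups without overlap is not given here. The separation is therefore not read as particular to the pair.

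Mono-associated samples covered both ends of this measure. The mean was -0.84 ± 1.08 (SD, n = 9) with CEC and -0.89 ± 0.59 (SD, n = 9) with Nissle, and 10 of the 18 samples lay between the germfree and conventional ranges. CEC replicates 8, 9 and 10, which were high for both genes, had -0.12, -0.07 and -0.24, the first and the last of them within the conventional range and replicate 9 just above it. CEC replicates 1, 3, 4 and 7, which were low for both, had -1.53, -1.37, -1.34 and -1.72, above every germfree sample. CEC replicate 2, at -2.29, lay within the germfree range.

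CEC replicate 6 and Nissle replicate 6, which had the most undetermined wells, departed from this in opposite directions. CEC replicate 6 had the highest value of all, 1.16, with Duoxa2 at 3.22 and Duox2 at 2.07. Nissle replicate 6 had -1.12, with Duox2 at 3.30 and Duoxa2 at 2.18, where the other Nissle samples with Duox2 above 2, replicates 2 and 4, had 0.20 and -0.14. The part of the undetermined wells in these values was not tested. With both left out and the scaling assays kept, the differences from germfree were 1.30 with CEC and 1.39 with Nissle for Duox2, and 2.40 and 2.72 for Duoxa2.

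**Figure D5:**
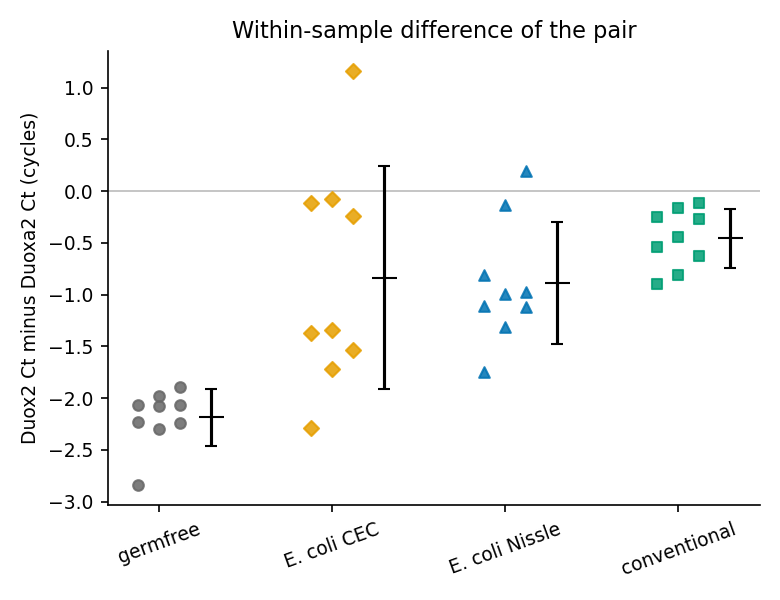
Duox2 Ct minus Duoxa2 Ct (y axis, in cycles) by group (x axis), with 1 point per sample and the mean ± SD (n = 9) beside it; a higher value is more Duoxa2 relative to Duox2. Germfree samples lie between -2.84 and -1.89 and conventional samples between -0.90 and -0.11, and CEC replicate 6 is the single point above 1.

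None of 144 other assays reached an r with the mean level of the pair as high as the r between its members. This holds over the 36 samples and over the 18 mono-associated samples, and was not computed within single groups. Over the 36 samples the assays most like the mean level of the pair, of 144 others with a value in all samples, were Mm00850074_g1 (r = 0.669) and Mm00845122_s1 (r = 0.532). The most opposed were Mm00546288_s1 (r = -0.723) and Mm01253561_m1 (r = -0.668). Over the 18 mono-associated samples the most alike were Mm00850074_g1 again (r = 0.748) and Mm00471115_m1 (r = 0.680). Without CEC replicate 7 and Nissle replicate 6, over 16 mono-associated samples, Mm00845122_s1 came first (r = 0.881). These coefficients describe likeness over samples that share groups and scaling, with no test, and the files do not pair these IDs with genes.

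The group means of these assays lay closer together than those of the pair. Mm00850074_g1 stood at 0.57 ± 0.37 log2 units (SD, n = 9) in germfree mucosa, against 1.62 ± 0.77 with CEC, 1.09 ± 0.95 with Nissle and 1.04 ± 0.35 in conventional mice. Mm00546288_s1 stood at -2.37 ± 0.49 (SD, n = 9), -3.04 ± 0.96, -3.08 ± 0.50 and -3.09 ± 0.33 in the same order. Mm00471115_m1 had an r of 0.207 with the pair over all 36 samples. In conventional samples, where Duox2 and Duoxa2 were high, it stood at 1.35 ± 0.21 (SD, n = 9), below the 2.23 ± 0.26 of germfree samples.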

How the data were processed

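Total RNA of ileal mucosa was run on TaqMan OpenArray cards, per the labels' protocols. Each value is a score in PCR cycles, the raw Ct, read by the authors from the cycler and deposited without normalization, per the file headers. Threshold, software and amplification efficiency were not stated. The code 40 (291 of 8064 wells) was treated as missing. Columns were matched to samples by title, and 0 of the IDs were found in the gene table.

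Levels were scaled to the Ct averaged over 146 assays without a missing value. limma 3.58.1 (R 4.3.3) was fitted to all 36 samples, 1 term per group, for 216 assays with 5 or more values in each group, with Benjamini-Hochberg adjustment. The step was tested on simulated data in which each assay had the same SD in every group, unlike the members here. Permutation tests enumerated all 362880 pairings. No samples of a group held an identical Ct, and their Ct differences had an SD of at least 0.434, so each was kept as its own sample. Assays most like the pair were the 2 highest and 2 lowest by Pearson's r, and the 2 highest among mono-associated samples. The members, gene lists and rules were chosen with earlier results of these data known. The gene and marker lists could not be used without gene names. Sequences are RefSeq's, of GRCm38.p6.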

Additional observations from a re-analysis of the deposited data

Results flagged for a closer look

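Germfree replicate 20 lay far from the other germfree samples in Duox2 Ct minus Duoxa2 Ct, at -2.84 cycles. The nearest other sample was at -2.29, a gap of 0.573 of the group's whole range and past Dixon's critical value for 9 samples. Its Duoxa2 level, -3.18, was the lowest of the group, close to the -3.13 of germfree replicate 11, while its Duox2 level was -0.34, near the group's median of -0.40. Chance passes this value in about 1 in 20 groups, and 12 groups of values were screened.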

How the results depend on the processing

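Differences of both genes from germfree stayed above 0 under every scaling, left-out sample and fit tried. They ranged from 2.23 to 2.64 (Duox2) and 3.99 to 4.37 (Duoxa2) in conventional mice and from 0.46 to 1.58 and 1.39 to 3.08 with CEC. With Nissle their lowest values were 1.10 and 2.45, the low ends with either strain being differences of medians. Nissle minus CEC ranged from -0.16 to 0.64 for Duox2 and -0.30 to 1.06 for Duoxa2, so its sign was not fixed. With the replicate number as a replicate block Nissle minus CEC was 0.51 and 0.54, and conventional minus mono-associated 0.74 and 1.12. Same-numbered samples showed no strong common deviation (r from -0.404 to 0.329). Differently numbered samples were not compared in this way, so whether the numbers pair samples is not settled.

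Counts of called assays moved more. With CEC replicate 7 and Nissle replicate 6 both left out and the scaling assays chosen again (179 in place of 146), limma called 90 assays for conventional against germfree, 65 for CEC, 36 for Nissle, 71 for conventional against mono-associated and 0 for Nissle against CEC. With the same samples left out and the 146 scaling assays kept, the counts were 73, 57, 37, 68 and 0. For CEC, in place of 11, it called 24 with the 20 steadiest assays, 27 with quantile normalization and 7 when scaled to the first 112 rows, an alternative added after seeing the data, as were leaving out CEC replicate 6 with Nissle replicate 6 and keeping the scaling assays. For Nissle, in place of 16, it called 5 with raw Ct, 10 with quantile normalization, 8 scaled to the first 112 rows and 7 with filled-in wells. Nissle against CEC had 0 calls in place of 1 with quantile normalization, filled-in wells or the replicate block. Leaving out single samples gave 2 (without CEC replicate 9) to 56 (without CEC replicate 7) calls for CEC, 6 (without germfree replicate 31) to 35 (without CEC replicate 7) for Nissle and 0 to 2 for Nissle against CEC. Leaving out germfree replicate 22 or 31 brought the CEC count to 6, and leaving out germfree replicate 10 brought it to 7, while the Nissle count was 9 without Nissle replicate 1 or 4 and 10 without Nissle replicate 2 or 3. The correlation of the pair was 0.77 in germfree and 0.77 in conventional samples with the 20 steadiest assays, but 0.47 and 0.58 with quantile normalization. With median scaling and without the 2 samples farthest from the median it was 0.59 and 0.44.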
